A study of Mus musculus with 8 samples.

Results

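The TGF-β negative feedback genes examined here were Smad7, Smurf1, Smurf2, Pmepa1, Ldlrad4, Ski, Skil and Tgif1, which are 8 of the 23361 genes listed in the expression table. They were taken by gene symbol because their products are known to inhibit TGF-β signalling. The rule uses no measured value, but this set and the gene lists below were chosen when earlier results of these data were known, so the shares of called genes are descriptions. RNA was sequenced from 4 libraries of Nrp-1+ iTreg and 4 of Nrp-1- iTreg, labelled as biological replicates 1 to 4 in each group. All 8 libraries came from wild-type (WT) mice with a Foxp3-RFP reporter, a red fluorescent mark of the Treg transcription factor Foxp3. iTreg are regulatory T cells made in culture, here from naive CD4+ T cells with anti-CD3/CD28 microbeads, IL-2 at 50 U/ml and TGF-β at 2 ng/ml. The study's methods state the IL-2 dose in ng/ml instead. Culture lasted 3 days, although another label field gives day 5. The living CD4+ Foxp3-RFP+ cells were then sorted by surface Nrp-1 (neuropilin-1, a co-receptor) into the groups called Nrp-1+ and Nrp-1- cells below. Both groups thus received the same TGF-β. Whether replicates came from separate mice or cultures is not given in the sources used here, so p-values measure only the spread between these libraries, which may be technical. The comparison asks how the 2 sorted subsets differ in the genes that restrain the cytokine that induced them.

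TGF-β acts through a pair of receptor kinases that phosphorylate Smad2 and Smad3, which join Smad4 and regulate genes in the nucleus. Several of the genes induced in this way encode inhibitors, so that the signal limits itself. Smad7 with the ubiquitin ligases Smurf1 and Smurf2 acts on the receptors, Pmepa1 and Ldlrad4 are membrane proteins that hold back Smad2 and Smad3, and Ski, Skil and Tgif1 are corepressors that act on Smad complexes at their target genes. In T cells, TGF-β drives Foxp3 expression and restrains effector function.

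Of the 8 genes, 2 were higher in Nrp-1+ cells (Pmepa1 and Ldlrad4), 3 were lower (Smad7, Smurf1 and Tgif1) and 3 did not pass the test (Ski, Skil and Smurf2). The largest differences were a Smad7 level 18.4% below, and a Pmepa1 level 19.2% above, that of Nrp-1- cells. A gene was called when its adjusted p was under 0.05 by limma on log2(FPKM + 1), fitted over the 10467 genes with a mean of at least 1 FPKM (fragments mapped to a gene, scaled to its exon length and to the mapped fragments of the library). All 8 genes passed this filter. The calls are 25.0% of the 8 genes in the higher and 37.5% in the lower direction, where 20.9% of all tested genes were called higher and 20.0% lower. With a list this short, these shares lie near the background. The median log2 fold change was -0.02 over the 8 genes and -0.02 over all tested genes. Without overlap between the 4 libraries of each group were 2 genes that were higher and 2 that were lower, where 20.2% of all tested genes did not overlap with Nrp-1+ cells above and 19.3% with Nrp-1+ cells below. With 4 libraries against 4, no exact two-sided test can give a p below 0.0286. In RNA from bulk cells, a lower value may come from fewer cells that express a gene or from less RNA per cell, and these cannot be told apart. With quantile normalization 1 gene was called higher and 3 lower, and a correction for GC content and length also gave 1 and 3. The count of lower genes was 2 without a filter, with a replicate block or with array weights, and 1 without replicate 4 of Nrp-1+ cells or replicate 1 or 3 of Nrp-1- cells, while the count of higher genes was 1 without replicate 1, 2 or 4 of Nrp-1+ cells or replicate 3 of Nrp-1- cells.

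**Figure D1:**
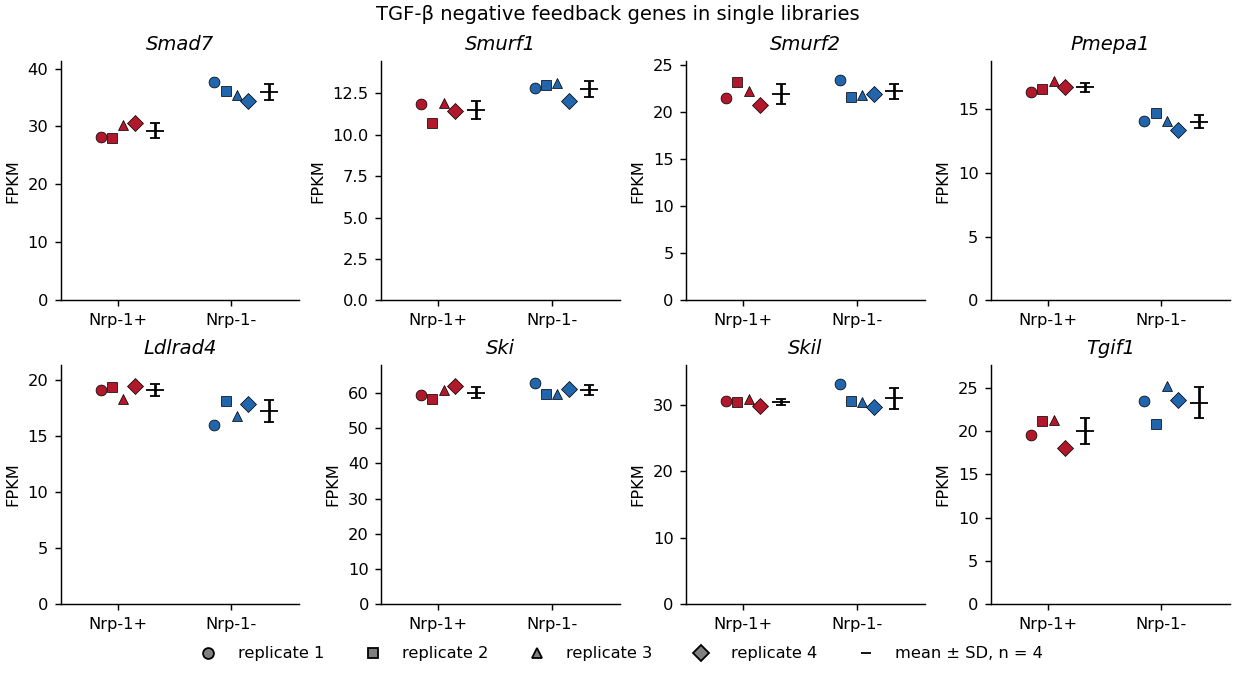
FPKM (vertical axes, starting at 0) of the 8 genes in the 4 Nrp-1+ (red) and 4 Nrp-1- (blue) libraries, with a symbol for each replicate number and the mean ± SD beside each group (n = 4). The red and blue points of Smad7, Smurf1, Pmepa1 and Ldlrad4 do not overlap, and those of Smurf2, Ski, Skil and Tgif1 do.

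The sort and the cell type were checked first. The Nrp1 level in Nrp-1+ cells was 21.5 ± 0.709 FPKM (SD, n = 4), and that in Nrp-1- cells 4.95 ± 0.262 FPKM. The T cell and Treg markers Cd3e, Cd3g, Cd4, Foxp3, Il2ra and Ctla4 summed to between 1494 and 1533 FPKM in Nrp-1+ cells and between 1497 and 1560 FPKM in Nrp-1- cells. Of these 6 markers, Foxp3 (115.8 against 108.8 FPKM, adjusted p = 0.0245 by limma) and Il2ra (265.5 against 227.9 FPKM, 0.000108) were higher in Nrp-1+ cells, and Ctla4 (143.6 against 160.0 FPKM, 0.000938) and Cd3g (443.7 against 478.9 FPKM, 0.0375) were lower. The B cell markers (Cd79a and Ms4a1) summed to at most 0.867 FPKM in any library, with Ms4a1 listed at 0 in all 8. Of 5 myeloid markers Itgam alone was tested (6.70 against 5.56 FPKM, adjusted p = 0.00136 by limma), and of 4 CD8 and NK markers Cd8b1 alone (7.86 against 10.0 FPKM, adjusted p = 0.0119), while Cd8a, Lyz2 and Csf1r stayed under 1 FPKM in every library. Haemoglobin Hba-a1, the 1 erythroid marker of 3 that was tested, was higher in Nrp-1+ cells at 6.10 FPKM against 2.52 FPKM (log2 fold change 1.02, adjusted p = 0.000510). All 15 genes of a proliferation list were higher in Nrp-1+ cells by limma, and their summed level was between 2072 and 2126 FPKM against between 1138 and 1158 FPKM. The part of proliferation and of the other markers in the differences below was not tested. Relative sequencing depth, read from genes with low values, lay between 0.810 and 1.24 of the first library, and scaling factors between libraries stayed between 0.998 and 1.00, while the FPKM summed over all genes ranged from 693961 (replicate 3 of Nrp-1+ cells) to 1217750 (replicate 1 of Nrp-1- cells).

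Smad7 is the inhibitory Smad, which binds the activated type I receptor and blocks the phosphorylation of Smad2 and Smad3. Its gene lies at chr18:75367365-75395935 (GRCm38.p6). Smad7 was at 28.2, 28.0, 30.3 and 30.6 FPKM in replicates 1 to 4 of Nrp-1+ cells and at 37.7, 36.1, 35.3 and 34.4 FPKM in those of Nrp-1- cells. Every Nrp-1+ library lay below every Nrp-1- library, and the gap between the groups was wider than the range within either. The means were 29.3 ± 1.36 FPKM and 35.9 ± 1.39 FPKM (SD, n = 4) and differed by -6.60 FPKM (two-sided exact permutation test, p = 0.0286). The log2 fold change was -0.28 with a standard error of 0.04 (adjusted p = 0.000759 by limma), and 17.0% of all tested genes had a larger change in either direction. Under the 19 other fits tried, the log2 fold change of Smad7 stayed between -0.32 and -0.26 and the adjusted p between 0.000164 and 0.0112.

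Smurf1 and Smurf2 are closely related ubiquitin ligases, which Smad7 recruits to the receptor complex for its degradation. Smurf1 (chr5:144876495-144965899) was at 11.9, 10.7, 11.9 and 11.4 FPKM in Nrp-1+ cells and at 12.8, 13.0, 13.1 and 12.1 FPKM in Nrp-1- cells. The groups did not overlap, but the highest Nrp-1+ library and the lowest Nrp-1- library differed by little. The means were 11.5 ± 0.552 FPKM and 12.8 ± 0.484 FPKM (SD, n = 4), a log2 fold change of -0.14 with a standard error of 0.04 (adjusted p = 0.0246 by limma). The call of Smurf1 was lost, with adjusted p between 0.0517 and 0.0645, when replicate 2 or 4 of Nrp-1+ cells or replicate 1, 2 or 3 of Nrp-1- cells was left out. Over all 8 omissions the log2 fold change stayed between -0.17 and -0.11.

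Smurf2 (chr11:106820061-106920747) was at 21.5, 23.2, 22.2 and 20.8 FPKM in Nrp-1+ cells and at 23.4, 21.6, 21.8 and 21.9 FPKM in Nrp-1- cells. These values overlapped throughout, with the highest in replicate 1 of Nrp-1- cells and the lowest in replicate 4 of Nrp-1+ cells. The log2 fold change was -0.02 (95% interval -0.11 to 0.07, adjusted p = 0.729 by limma). The ratio of Smurf2 to Smurf1 was 1.91 ± 0.169 (SD, n = 4) in Nrp-1+ cells and 1.74 ± 0.0908 in Nrp-1- cells, and it did not pass an exact two-sided permutation test on the log2 ratio (p = 0.171). The lower Smurf1 is therefore not shown to be a difference between the 2 ligases. The exons of Smurf2 overlap those of a microRNA gene, Gm27322, on the same strand in GENCODE M21, and no gene overlaps those of Smurf1.

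The start regions of the pair are shown because the genes share a function while 1 of them was called. Of the 8 genes, 4 had an entry in the RefSeq promoter table for GRCm38.p6 (Ski, Smurf1, Smurf2 and Tgif1). The 250 bases before the start that this table uses lie at chr5:144965831-144966080 for Smurf1 and at chr11:106920716-106920965 for Smurf2, both on the minus strand and written 5′ to 3′ as transcribed, and the capitals mark CAGAC, a core of Smad binding elements, or its reverse complement GTCTG.
Smurf1: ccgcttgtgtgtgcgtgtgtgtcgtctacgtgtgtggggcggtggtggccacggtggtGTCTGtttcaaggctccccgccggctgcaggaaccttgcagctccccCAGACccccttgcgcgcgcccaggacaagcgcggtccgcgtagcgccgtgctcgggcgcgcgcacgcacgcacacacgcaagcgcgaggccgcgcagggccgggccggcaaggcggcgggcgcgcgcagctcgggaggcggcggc
Smurf2: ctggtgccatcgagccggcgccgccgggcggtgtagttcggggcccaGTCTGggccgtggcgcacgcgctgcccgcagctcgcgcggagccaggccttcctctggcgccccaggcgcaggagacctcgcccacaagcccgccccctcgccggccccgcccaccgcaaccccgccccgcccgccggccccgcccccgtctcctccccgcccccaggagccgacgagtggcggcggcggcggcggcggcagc

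The start in the promoter table lies inside the RefSeq extent of each Smurf gene given above, so that 69 bases of the Smurf1 window and 32 of the Smurf2 window are within that extent, and distances are counted from the start in the table. The Smurf1 window held 2 such matches, starting 192 and 145 bases before the start, and the Smurf2 window 1, starting 203 bases before it. Of all 32851 promoter windows of this length, 42.2% held CAGAC on either strand, so that such a match is common. The windows are rich in G and C, at 74.8% for Smurf1 and 82.0% for Smurf2. The window of Ski held no match, and of the 5 alternative start regions listed for Tgif1, 3 held at least 1. The palindrome GTCTAGAC was in none of these windows and in 0.167% of all windows.

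Pmepa1 and Ldlrad4 are related membrane proteins that bind Smad2 and Smad3 and keep them from the receptor, and they were the 2 genes of the set with higher levels in Nrp-1+ cells. Pmepa1 (chr2:173224458-173276731) was at 16.3, 16.6, 17.2 and 16.8 FPKM in Nrp-1+ cells and at 14.1, 14.7, 14.1 and 13.4 FPKM in Nrp-1- cells. All Nrp-1+ libraries were above all Nrp-1- libraries, and each group varied by less than the gap between them. The means were 16.7 ± 0.361 FPKM and 14.0 ± 0.548 FPKM (SD, n = 4), with a log2 fold change of 0.24 and a standard error of 0.03 (adjusted p = 0.000617 by limma), and 21.9% of all tested genes changed by more. The adjusted p of Pmepa1 stayed between 0.00047 and 0.00671 under the 19 other fits.

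Ldlrad4 (chr18:67932274-68260550) was at 19.1, 19.4, 18.4 and 19.5 FPKM in Nrp-1+ cells and at 16.0, 18.2, 16.8 and 17.9 FPKM in Nrp-1- cells. The groups did not overlap, although the lowest Nrp-1+ library (replicate 3) and the highest Nrp-1- library (replicate 2) nearly touched. The means were 19.1 ± 0.525 FPKM and 17.2 ± 0.993 FPKM (SD, n = 4), an increase of 10.8% and a log2 fold change of 0.14 with a standard error of 0.04 (adjusted p = 0.0266 by limma). This call was lost in 7 of the 19 other fits. Correction for GC content and length gave a log2 fold change of 0.10 (adjusted p = 0.149), quantile normalization an adjusted p of 0.0576, and leaving out replicate 1, 2 or 4 of Nrp-1+ cells or replicate 3 of Nrp-1- cells values from 0.0563 to 0.0667. Exons of Ldlrad4 overlap those of Fam210a and Mir7219 on the opposite strand in GENCODE M21, and reads of these genes could be told apart only if their strand was kept and used. The study's methods name a directional library kit (NEBNext) and the labels another kit (SMARTER), and whether counting used the strand is not given in the sources used here. The Fam210a level in Nrp-1+ cells was 3.20 ± 0.280 FPKM (SD, n = 4), and that in Nrp-1- cells 3.55 ± 0.0366 FPKM (adjusted p = 0.117 by limma). The ratio of Ldlrad4 to Pmepa1 was 1.14 ± 0.0499 in Nrp-1+ cells and 1.23 ± 0.0857 in Nrp-1- cells (exact two-sided permutation test on the log2 ratio, p = 0.143).

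Smad7 and Pmepa1, inhibitors that act near the receptor, thus moved in opposite directions. The ratio of the Smad7 level to the Pmepa1 level, chosen after their values were seen, was between 1.68 and 1.82 in the Nrp-1+ cells libraries and between 2.45 and 2.68 in the Nrp-1- cells libraries. Since the pair was picked for its opposite changes, the gap between these ranges restates both calls and supports neither.

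**Figure D2:**
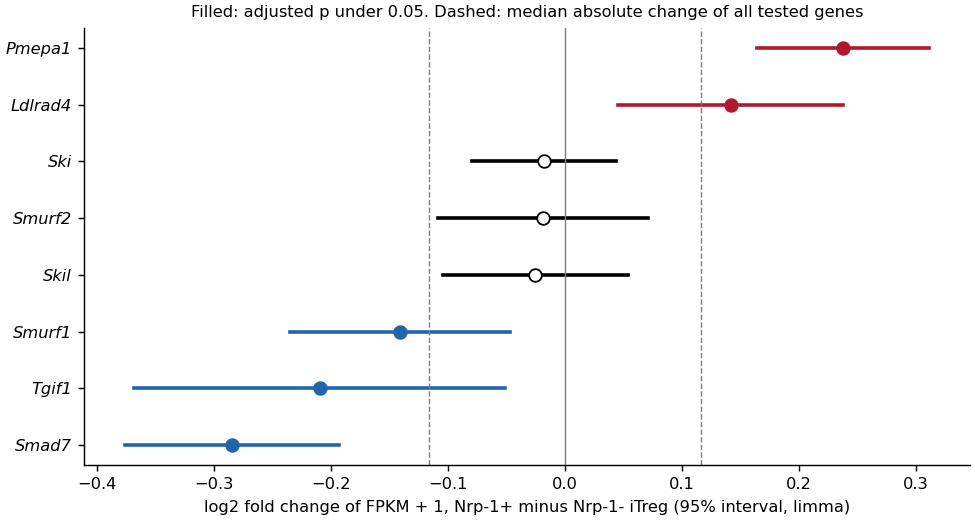
Log2 fold change of FPKM + 1 in Nrp-1+ against Nrp-1- cells (horizontal axis) with its 95% interval by limma for each of the 8 genes, filled where the adjusted p was under 0.05, with dashed lines at the median absolute change of all 10467 tested genes (0.12). Smad7 (-0.28) and Pmepa1 (0.24) have intervals wholly beyond the dashed lines, and those of Ski, Skil and Smurf2 lie between them.

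Ski and Skil (also known as SnoN) are related corepressors that bind Smad complexes and recruit histone deacetylases, and their proteins are degraded when TGF-β signals begin. Ski (chr4:155154075-155222535) had the highest level of the set, at 59.4, 58.2, 60.9 and 62.0 FPKM in Nrp-1+ cells and 62.8, 59.8, 59.7 and 61.2 FPKM in Nrp-1- cells. Skil (chr3:31095058-31122923) was at 30.5, 30.4, 30.8 and 29.8 FPKM in Nrp-1+ cells and at 33.2, 30.5, 30.4 and 29.7 FPKM in Nrp-1- cells. Both sets of values overlapped, and replicate 1 of Nrp-1- cells held the highest value of either gene. The log2 fold change was -0.02 for Ski (95% interval -0.08 to 0.04, adjusted p = 0.635 by limma) and -0.03 for Skil (95% interval -0.10 to 0.05, adjusted p = 0.590). In this fit the intervals limit a difference of Ski to between 0.947 and 1.03 times on the scale of FPKM + 1. For Skil the limits are 0.930 and 1.04 times. With the correction for GC content and length, the log2 fold changes were -0.05 for Ski and -0.06 for Skil (adjusted p = 0.112 and 0.146 by limma). The ratio of Ski to Skil was 1.98 ± 0.0711 (SD, n = 4) in Nrp-1+ cells and 1.97 ± 0.0686 in Nrp-1- cells (exact two-sided permutation test on the log2 ratio, p = 0.771, 1 of 3 related pairs compared in this way without adjustment).

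Tgif1 encodes a homeodomain corepressor that binds Smad2 and Smad3 and competes with their coactivators. The gene (chr17:70844205-70853532) was at 19.5, 21.2, 21.3 and 18.0 FPKM in Nrp-1+ cells and at 23.5, 20.8, 25.3 and 23.6 FPKM in Nrp-1- cells. Replicate 2 of Nrp-1- cells lay below the 2 highest Nrp-1+ libraries, so the groups overlapped. The means were 20.0 ± 1.55 FPKM and 23.3 ± 1.84 FPKM (SD, n = 4), 14.1% apart, with a log2 fold change of -0.21 and a standard error of 0.07 (adjusted p = 0.0406 by limma, but exact two-sided permutation p = 0.0857). Tgif1 was the most variable gene of the set, with a log2 SD within groups of 0.11 where the median over all tested genes was 0.0659. The call was lost in 8 of the 19 other fits, which were the one without a filter (adjusted p = 0.0666), that with the replicate number as a block (0.0688), that with array weights (0.0525) and those without replicate 1 or 4 of Nrp-1+ cells or replicate 1, 3 or 4 of Nrp-1- cells (0.0819 to 0.0970).

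**Figure D3:**
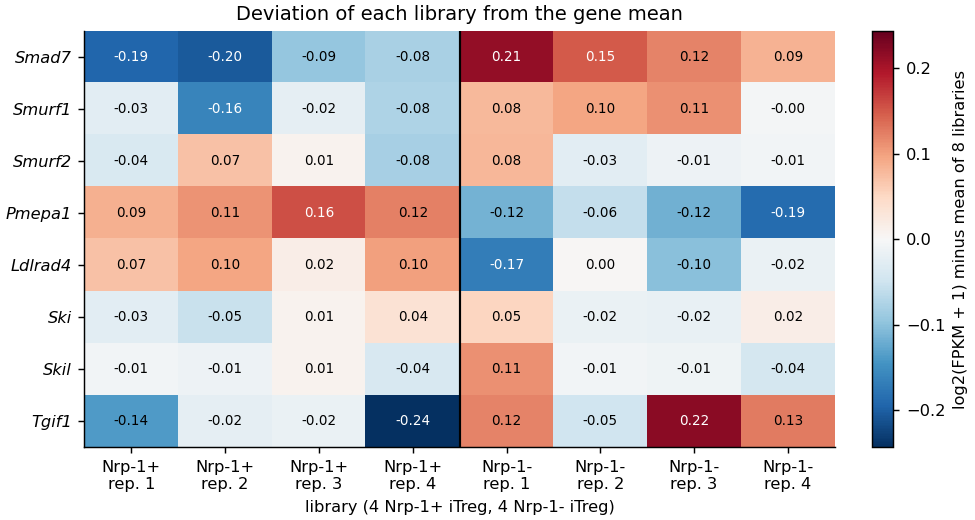
Deviation of log2(FPKM + 1) in each library (columns) from the mean of the 8 libraries for each gene (rows), red above and blue below the mean, with the black line between Nrp-1+ and Nrp-1- cells. The Smad7 and Pmepa1 rows change sign at the line, and Tgif1 has both the lowest value (-0.24, replicate 4 of Nrp-1+ cells) and the highest (0.22, replicate 3 of Nrp-1- cells).

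Levels of the 8 genes can be compared with each other in FPKM, which is per transcript length. In Nrp-1+ cells the order from the highest mean was Ski, Skil, Smad7, Smurf2, Tgif1, Ldlrad4, Pmepa1 and Smurf1, from 60.1 down to 11.5 FPKM. The ranges of Skil and Smad7, of Smurf2 and Tgif1, and of Tgif1 and Ldlrad4 overlapped between neighbours in this order. In Nrp-1- cells the order was Ski, Smad7, Skil, Tgif1, Smurf2, Ldlrad4, Pmepa1 and Smurf1, from 60.9 down to 12.8 FPKM, and Tgif1 and Smurf2 alone overlapped between neighbours. Smad7 was thus second in Nrp-1- cells, with all 4 libraries above those of Skil, and level with Skil in Nrp-1+ cells. Summed over the 8 genes, the level was between 206.4 and 213.0 FPKM in Nrp-1+ cells and between 214.2 and 223.5 FPKM in Nrp-1- cells. Replicate 3 of Nrp-1+ cells held the highest value of its group in 4 of the 8 genes (Skil, Pmepa1, Smurf1 and Tgif1) and replicate 4 in 3. Replicate 1 of Nrp-1- cells was highest in its group in 4 (Smad7, Ski, Skil and Smurf2) and replicate 4 of Nrp-1- cells the lowest in 4. The median log2 SD within groups of the 8 genes was 0.0580.

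The 3 tested genes whose levels followed Smad7 most closely over the 8 libraries were Abcb9 (Pearson r = 0.988), Tmc6 (0.988) and Kdm4b (0.986), the last a histone demethylase. Their means were 14.4 against 18.2 FPKM, 54.5 against 65.7 FPKM and 19.9 against 24.4 FPKM in Nrp-1+ and Nrp-1- cells. The libraries share the group difference and their preparation, and 540 tested genes reached an r of 0.9 with Smad7.

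Other genes of the TGF-β pathway were described from 5 lists of 54 genes in all, of which 41 were tested. By limma 17 of these were higher and 3 lower in Nrp-1+ cells, or 41.5% and 7.32% of those tested, beside 20.9% and 20.0% of all tested genes. Quantile normalization gave 11 higher and 4 lower, and the correction for GC content and length 12 and 7. The median log2 fold change over the 41 genes was 0.03. Of the 20 called genes, 13 were called in the same direction in every other fit that included them.

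**Figure D4:**
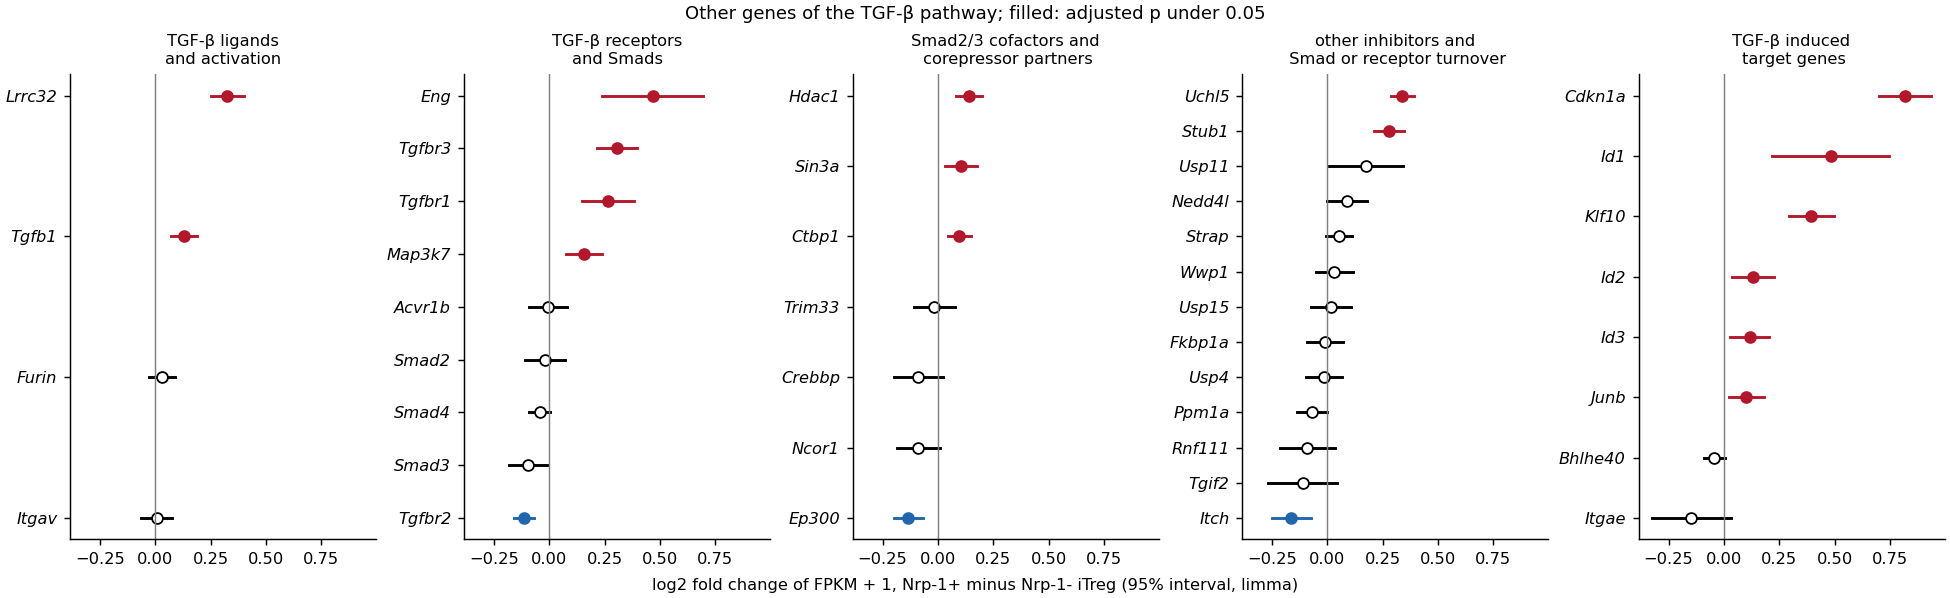
Log2 fold change of FPKM + 1 in Nrp-1+ against Nrp-1- cells (horizontal axis) with 95% intervals by limma for the 41 tested genes of the 5 pathway lists, filled red (higher) or blue (lower) where the adjusted p was under 0.05. Cdkn1a (0.82) changed most, and the target genes hold 6 filled red points and no blue one, which became 3 higher and 1 lower with the correction for GC content and length.

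Upstream of the inhibitors, 2 of 4 tested genes of ligand production and activation were higher, Tgfb1 and Lrrc32, and none was lower. The share called higher was 50%, beside 20.9% of all tested genes. Lrrc32 encodes GARP, which holds latent TGF-β on the Treg surface. It ranged from 29.2 to 31.8 FPKM in Nrp-1+ cells and from 23.1 to 24.7 FPKM in Nrp-1- cells (adjusted p = 0.000109 by limma, log2 fold change 0.33 with a standard error of 0.03). Furin, which cleaves the TGF-β precursor, was at 30.2 against 29.6 FPKM and did not pass (adjusted p = 0.386), and Tgfb2, Tgfb3, Ltbp3 and Itgb8 were under 1 FPKM in all libraries. Tgfb1 was at 162.2 ± 2.45 FPKM against 148.4 ± 4.51 FPKM (SD, n = 4, adjusted p = 0.00480), and its call was lost with quantile normalization (adjusted p = 0.0620) and with the GC and length correction when the replicate number was a block (0.0719).

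Among receptors and Smads, 4 of 9 tested genes were higher and 1 was lower. Their shares were 44.4% and 11.1%, beside 20.9% and 20.0% of all tested genes. The type I receptor gene Tgfbr1, whose product is the target of Smad7 and the Smurfs, was at 18.7 ± 0.872 FPKM against 15.4 ± 1.05 FPKM (SD, n = 4, log2 fold change 0.26, adjusted p = 0.00423 by limma). The type II receptor gene Tgfbr2 was the lower gene, at 85.4 ± 1.06 FPKM against 92.6 ± 1.48 FPKM (log2 fold change -0.11, adjusted p = 0.00211). The co-receptor genes Tgfbr3 (8.81 against 6.94 FPKM, adjusted p = 0.000504) and Eng (2.19 against 1.30 FPKM, adjusted p = 0.00656) and the kinase gene Map3k7 (23.0 against 20.5 FPKM, adjusted p = 0.00930) were also higher. The signal-carrying Smads did not pass the test, with log2 fold changes of -0.02 for Smad2, -0.09 for Smad3 (adjusted p = 0.0876) and -0.04 for Smad4. With the correction for GC content and length, Smad3 and Smad4 were called lower (adjusted p = 0.0355 and 0.0191), and with quantile normalization Smad3 was (0.0433).

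Among cofactors and partners of the corepressors, 3 of 7 tested genes were higher and 1 was lower. As shares these are 42.9% and 14.3%, beside 20.9% and 20.0% of all tested genes. Ep300, a coactivator of Smad3, was lower at 22.7 against 25.0 FPKM (adjusted p = 0.00649 by limma). The corepressor partners Hdac1 (130.6 against 118.4 FPKM, adjusted p = 0.00279), Sin3a (29.8 against 27.6 FPKM, 0.0321) and Ctbp1 (117.9 against 110.2 FPKM, 0.00991) were higher, but each lost its call with quantile normalization (adjusted p = 0.129, 0.0572 and 0.137), which left none of the list higher. With the correction for GC content and length, Sin3a and Ctbp1 lost their calls too (0.114 and 0.0512), and Sin3a also without replicate 1, 2 or 3 of Nrp-1+ cells or replicate 3 or 4 of Nrp-1- cells. Ncor1, Crebbp and Trim33 did not pass.

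Among other inhibitors and enzymes of Smad or receptor turnover, 2 of 13 tested genes were higher and 1 was lower. That is 15.4% and 7.69%, beside 20.9% and 20.0% of all tested genes. Uchl5, a deubiquitinase that Smad7 can bring to the receptor, was at 25.5 ± 0.322 FPKM against 19.9 ± 0.425 FPKM (SD, n = 4, log2 fold change 0.34, adjusted p = 1.11e-05 by limma). Stub1, a ubiquitin ligase that acts on Smad3, was at 31.2 ± 0.725 FPKM against 25.6 ± 0.887 FPKM (log2 fold change 0.28, adjusted p = 0.000189). Itch, a ligase of the same HECT class as the Smurfs, was lower at 20.7 ± 0.137 FPKM against 23.3 ± 1.29 FPKM (log2 fold change -0.16, adjusted p = 0.00973). Smad6 and Bambi, inhibitors related in function to Smad7, were under 1 FPKM in all libraries and were not tested. Tgif2, the relative of Tgif1, was at 5.35 against 5.86 FPKM (adjusted p = 0.218), and Rnf111, a ligase that degrades Smad7, Ski and Skil proteins, was at 11.2 against 12.0 FPKM (adjusted p = 0.214).

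Of 8 tested genes listed as TGF-β targets, other than the inhibitors themselves, 6 were higher in Nrp-1+ cells and none was lower. The 6 are 75.0%, beside 20.9% of all tested genes called higher. Among the 6 are Id1, Id2 and Id3, which belong to the same gene family. Whether TGF-β induces any of the 8 in these cells was not tested. The correction for GC content and length left 3 higher (Cdkn1a, Klf10 and Id1) and 1 lower (Bhlhe40), and quantile normalization 4 higher and none lower. Leaving out 1 library gave between 3 and 6 higher, with 3 without replicate 2 or 3 of Nrp-1+ cells or replicate 1, 3 or 4 of Nrp-1- cells. Cdkn1a, a cell cycle inhibitor that p53 also induces, ranged from 59.5 to 64.2 FPKM in Nrp-1+ cells and from 31.1 to 36.3 FPKM in Nrp-1- cells (adjusted p = 6.82e-06 by limma, log2 fold change 0.82 with a standard error of 0.05). Klf10, a transcription factor first described as an early TGF-β response gene, was at 14.2 ± 0.620 FPKM against 10.6 ± 0.541 FPKM (SD, n = 4, log2 fold change 0.40, adjusted p = 0.000201). Id1, an inhibitor of E proteins, was low at 2.23 against 1.32 FPKM (log2 fold change 0.48, adjusted p = 0.0110). The calls of Junb, Id2 and Id3 were near the threshold (adjusted p = 0.0455, 0.0351 and 0.0439) and were each lost in at least 9 of the 19 other fits. Itgae, the integrin chain CD103 induced by TGF-β in T cells, was at 3.10 against 3.53 FPKM and did not pass (adjusted p = 0.164). Bhlhe40, a transcriptional repressor, was at 40.6 against 41.9 FPKM and did not pass (adjusted p = 0.130), but was called lower with the correction for GC content and length (0.0333). Tgfbi, Ctgf and Cdkn2b, targets in other cell types, were under 1 FPKM in all libraries.

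**Figure D5:**
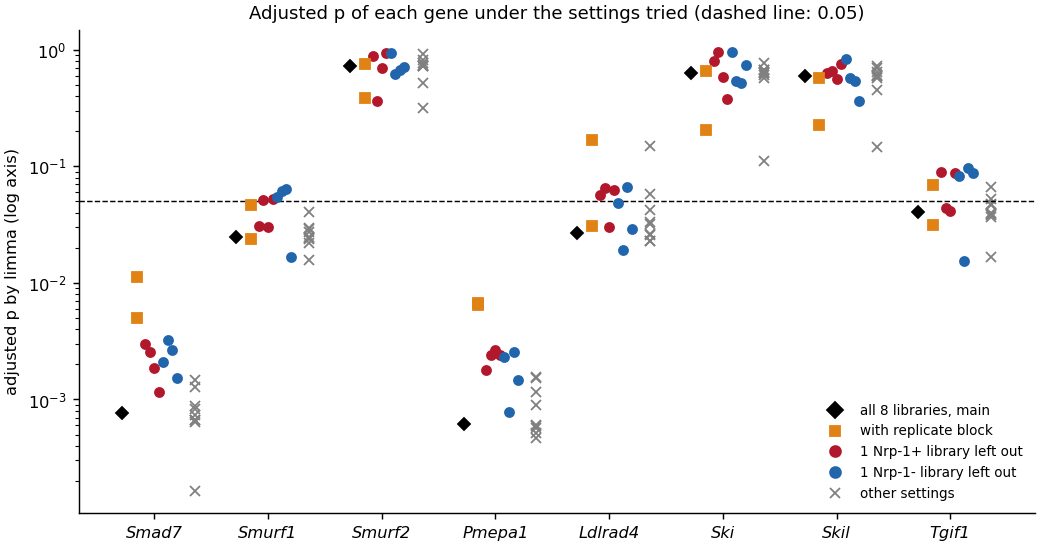
Adjusted p by limma (vertical log axis) of the 8 genes with all libraries (black diamonds), with the replicate number as a block (orange squares, without and with the GC and length correction), with 1 library left out (red and blue points) and under the other settings (grey crosses). Smad7 and Pmepa1 stay under the dashed line at 0.05 in every setting shown, Smurf1, Ldlrad4 and Tgif1 lie on both sides of it, and Smurf2, Ski and Skil stay above it.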

How the data were processed

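RNA-seq was analysed from 8 libraries of sorted iTreg, 4 Nrp-1+ and 4 Nrp-1-, grouped by their labels. The authors deposited 1 table of FPKM values per gene, which the study's methods say were calculated with Cufflinks after the reads were processed on CLC Genomics Workbench, and the submitters' processing notes name the builds GRCm38 and mm10. The alignment settings and annotation version are not given in the sources used here. Read counts were not used here, so depth is known only relative to the first library, from the most common ratio between low values. Between 15.9% and 19.6% of the low genes compared lay at this ratio. Depth limits low genes most.

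Genes with a mean of at least 1 FPKM were entered as log2(FPKM + 1) into limma 3.58.1 (R 4.3.3, trended prior, no covariate), with Benjamini-Hochberg adjustment over all 10467 tested genes and a threshold of 0.05. The pseudocount makes fold changes of low genes too small. Exact permutation tests on single values and ratios were two-sided (scipy 1.17.1, Python 3.11.15). The fits were tested on simulated data. Alternatives were pseudocounts of 0.1 and 0.5, no filter or a minimum of 5 FPKM, size factors, quantile normalization, a replicate block, no trend, array weights, an exact Mann-Whitney test and leaving out each library. A correction for GC content and length (GENCODE M21, natural splines with 5 degrees of freedom, 99.4% of tested genes with values) was added after seeing the data.

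The members and lists were chosen with earlier results of these data known, and a few genes of the lists are not reported here. The genes named were all 8 members, any gene of the pathway lists with the most changed first, the 3 genes most like the most changed member, and Nrp1 for the sort. Gene positions and promoter sequences came from RefSeq (GRCm38.p6) and overlaps between exons from GENCODE M21.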

Additional observations from a re-analysis of the deposited data

Results flagged for a closer look

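In 100 groups of 4 values, 7 held a library set apart from the other 3 by a gap above Dixon's critical value, where chance gives about 1 in 20, or 5. None of these was in the 8 inhibitor genes. Tgfb1 stood at 165.9 FPKM in Nrp-1+ replicate 4, where the others were between 160.8 and 161.5 FPKM. Ep300 stood at 21.8 FPKM in Nrp-1+ replicate 3, and between 22.9 and 23.0 FPKM in the others. Hdac1 stood at 129.1 FPKM in Nrp-1+ replicate 4, and between 131.0 and 131.3 FPKM in the others. Strap, a protein that strengthens the hold of Smad7 on the receptor, stood at 59.8 FPKM in Nrp-1- replicate 1 and between 61.5 and 61.6 FPKM in the others. Uchl5 stood at 25.0 FPKM in Nrp-1+ replicate 4, and at 25.6 FPKM in each of the others. Id3 stood at 42.8 FPKM in Nrp-1+ replicate 3, and between 39.1 and 39.7 FPKM in the others. The relative depth of replicate 3 of Nrp-1+ iTreg was 1.22, and between 0.994 and 1.00 in the rest of its group.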

How the results depend on the processing

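Smad7 and Pmepa1 kept their direction and call in all 19 other fits, while Smurf1 lost its call in 5, Ldlrad4 in 7 and Tgif1 in 8, always with the same sign. Quantile normalization, the GC and length correction and that correction with the replicate block each left 1 of the 8 genes called higher, and leaving out 1 library gave between 1 and 2 called higher and between 1 and 3 lower. Skil and Smurf2, which were not called, changed sign when a library was left out, with log2 fold changes from -0.044 to 0.0075 for Skil and from -0.046 to 0.0053 for Smurf2, 0.0050 of the latter without replicate 4 of Nrp-1+ iTreg. Of the other pathway genes, 11 were higher with quantile normalization and 11 with the GC and length correction and block, and 7 were lower with the correction alone. Leaving out 1 library gave between 3 and 5 lower, with 5 without replicate 3 of Nrp-1- iTreg. The cause was not tested. Deviations of same-numbered libraries from their group means correlated at -0.54, -0.02, 0.01 and -0.50 over all tested genes. Over the 8 genes the values were -0.24, -0.51, 0.74 and -0.20. With so few libraries, these correlations cannot show whether same-numbered libraries came from the same culture. With the replicate block 2 of the 8 genes were higher and 2 lower, Tgif1 having an adjusted p of 0.0688 by limma, and 15 pathway genes were higher and 3 lower.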
